A study of Mus musculus with 6 samples.

Results

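The ErbB receptors and their ligands were examined as 10 genes, taken by gene symbol from the 23183 symbols for which values were given. They comprised the 4 receptors *Egfr*, *Erbb2*, *Erbb3* and *Erbb4* and the 6 ligands *Egf*, *Tgfa*, *Hbegf*, *Areg*, *Btc* and *Nrg1*. RNA from cerebral microvessels isolated from the brains of C57BL/6 mice was sequenced, with 3 WT mice (TEK-cre, *Crif1*+/+) and 3 TEKCRIF1 KO mice (TEK-cre, *Crif1* flox/flox), to ask how the microvessel transcriptome differs when *Crif1* is deleted in the endothelium. *Crif1* (*Gadd45gip1*) encodes a mitochondrial ribosomal protein needed for the synthesis of respiratory chain subunits. Both genotypes carried the Cre recombinase under the control of Tek, which is active in endothelial cells and also in part of the blood cell lineage, and no mouse was treated. Age and sex are not given in the sources used here. Values are FPKM, fragments per kilobase of transcript scaled to the mapped fragments of the library, a scale per length on which genes can be compared. The 3 libraries of each genotype are taken as 3 mice, and the p-values measure only the spread between them.

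ErbB receptors are receptor tyrosine kinases that pair on the cell surface when a ligand binds. The EGF-like ligands are made as membrane-anchored precursors and released by ADAM proteases, and the paired receptors signal through Ras and MAP kinase, PI3 kinase and Akt, and phospholipase C-gamma and STAT proteins. EGFR binds EGF, TGF-alpha, HB-EGF, amphiregulin and betacellulin. ERBB2 has no known direct ligand and acts as a partner of the others, ERBB3 binds neuregulins but is a weak kinase, and ERBB4 binds neuregulins and some EGF-like ligands. In the brain, *Egfr* is expressed by glial cells and their precursors, *Erbb3* by cells of the oligodendrocyte lineage and *Erbb4* by interneurons, so a microvessel preparation that holds cells other than endothelium can carry RNA of each.

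The promoters of *Egfr* and *Egf* are shown because they were the 2 of 10 members whose KO and WT values did not overlap. Each sequence is the 250 bases before the transcription start, from the RefSeq annotation of GRCm38.p6 and read 5′ to 3′ on the strand of the gene, and capitals mark a GC box (GGGCGG, on either strand). The *Egfr* window lies at chr11:16751953-16752202 on the plus strand and the *Egf* window at chr3:129755323-129755572 on the minus strand.
Egfr: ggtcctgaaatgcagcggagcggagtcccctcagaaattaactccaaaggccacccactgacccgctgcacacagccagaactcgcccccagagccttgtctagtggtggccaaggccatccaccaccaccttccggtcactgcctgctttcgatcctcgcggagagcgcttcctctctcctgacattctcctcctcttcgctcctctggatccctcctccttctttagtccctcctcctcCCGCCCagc
Egf: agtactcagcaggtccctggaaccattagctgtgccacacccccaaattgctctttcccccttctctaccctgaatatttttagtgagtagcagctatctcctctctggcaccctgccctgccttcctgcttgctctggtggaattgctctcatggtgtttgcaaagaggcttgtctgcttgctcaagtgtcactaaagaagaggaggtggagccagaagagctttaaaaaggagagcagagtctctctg
The *Egfr* window had a GC content of 60.8% and 11 CpG, with 1 GC box between bases 9 and 4 before the start. The *Egf* window had a GC content of 50.4%, no CpG and no GC box. A second RefSeq start of *Egf*, inside the gene, has a window with a GC content of 52.0%, 15 CpG and no GC box (chr3:129725087-129725336, minus strand), which is not printed. Neither window held TATAAA or TGGGAA, the letters of a TATA box and of an RBPJ motif, on either strand. Among 32851 promoter windows of the same length, 32.7% held GGGCGG, 12.4% TATAAA and 21.6% TGGGAA, with both strands searched, and the median window had a GC content of 52.4% and 6 CpG. These matches describe letters and are not evidence of binding.

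The deleted gene was examined first. Here and below, 3 values of a genotype stand in the order of the library numbers 1, 2 and 3. *Gadd45gip1* was at 18.8, 15.3 and 16.5 FPKM in the WT libraries, and at 10.8, 7.54 and 10.4 FPKM in the KO libraries. All KO values lay below all WT values, in the direction of the labels (log2 fold change −0.77, SE 0.22; limma adjusted p = 0.841), and an exact two-sided permutation test gave p = 0.1, the smallest that 3 mice against 3 allow. The RNA that remained was not assigned to a cell type. Depth, estimated from the spacing of the lowest FPKM values, was 6400000 to 11700000 fragments per library, and 3 fragments on a transcript of 1 kb corresponded to between 0.256 and 0.470 FPKM. This floor covers counting error only.

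None of the 10 members passed the test between KO and WT. In limma on log2(FPKM + 1), 5 members had a mean of at least 1 FPKM and were tested (*Egfr*, *Erbb2*, *Erbb4*, *Tgfa* and *Hbegf*). Of these, 0 had an unadjusted p under 0.05, while 838 of all 14247 genes tested (5.88%) did. After Benjamini-Hochberg adjustment 0 members and 0 of the 14247 genes (0.0%) passed. When a library was left out, 4 genes passed without KO 2, 4 without KO 3 and 1 without WT 3, none of them a member. The groups did not overlap for 2 of the 10 members, *Egfr* (KO lower) and *Egf* (KO higher), and among the tested members for 1 of 5. Over all genes the groups did not overlap for 1848 of 18806 genes with a value above 0 (9.83%) and for 1577 of the 14247 genes tested (11.1%). The KO mean was lower for 3 of 4 receptors and higher for 5 of 6 ligands, beside 47.9% of the 18806 genes lower and 52.1% higher. These counts include *Erbb3*, whose sign on the log2 scale turned without WT 2 or KO 3 and with a pseudocount of 0.1, and *Areg*, which was at 0 in 4 libraries. They also include *Tgfa*, the ligand with a lower KO mean, whose sign on the log2 scale turned without KO 1. The median log2 fold change of the 5 tested members was −0.14, beside −0.01 for all genes tested.

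**Figure D1:**
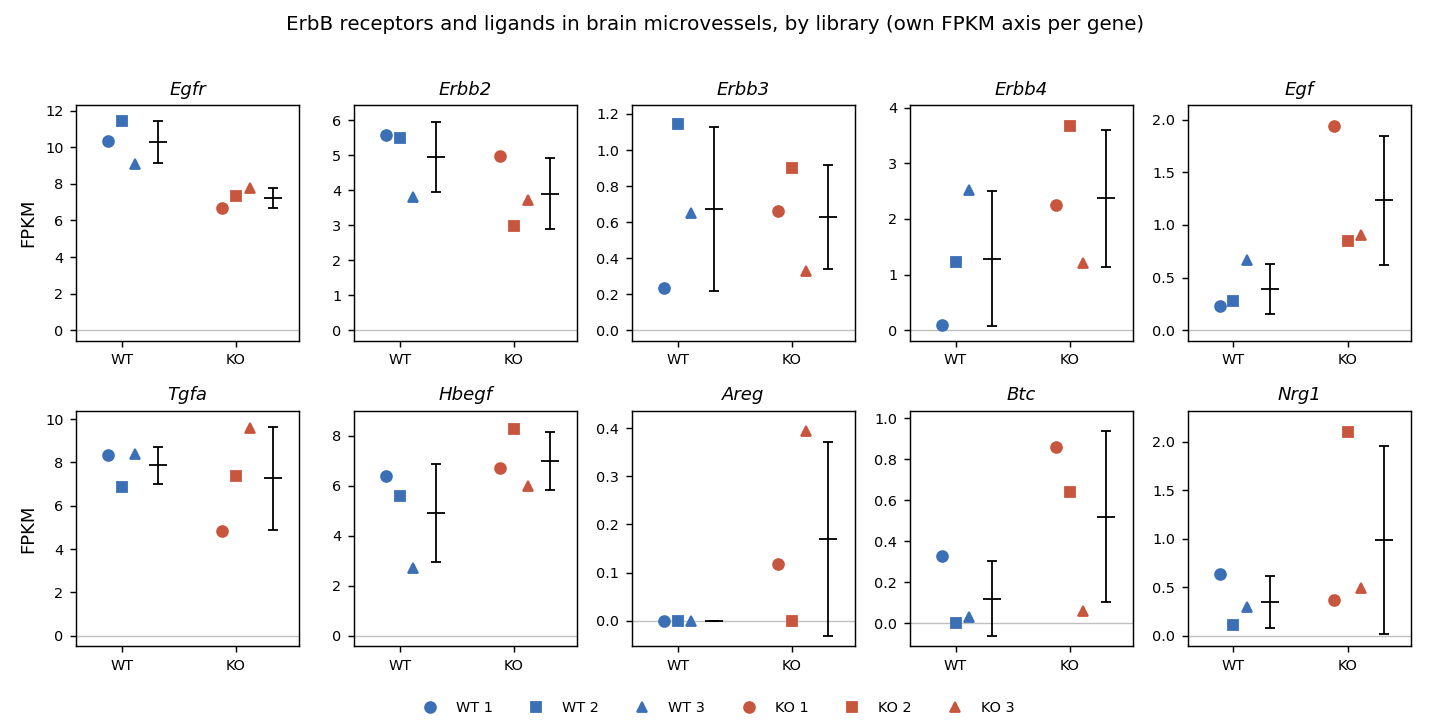
FPKM of the 10 ErbB genes in each of the 6 libraries, with a separate FPKM axis from about 0 for every gene. Points are libraries, with 1 shape per library number, and the bars beside them are the mean ± SD of 3 mice. WT and KO points are apart for *Egfr* and *Egf* and overlap for the other 8 genes.

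*Egfr*, the receptor of the EGF-like ligands, had the highest value of the 10 members in each WT library but in no KO library, where *Hbegf* (KO 1 and KO 2) or *Tgfa* (KO 3) was highest. It was at 10.4, 11.4 and 9.10 FPKM in WT mice and at 6.68, 7.32 and 7.76 FPKM in KO mice. The highest KO library thus lay below the lowest WT library. The means were 10.3 ± 1.17 in WT and 7.26 ± 0.546 in KO (SD, n = 3 each), a ratio of 0.704. The log2 fold change was −0.45 (SE 0.21), with an unadjusted limma p of 0.0579 and an adjusted p of 0.841, and the exact two-sided permutation p was 0.1. With GC content corrected in each library, the log2 fold change was −0.55 and the unadjusted limma p 0.0248, with an adjusted p of 0.999, in a fit where 4.66% of 13726 genes had an unadjusted p under 0.05. By rank within a library, where scaling between libraries has no part, *Egfr* stood at percentiles 59.2, 61.3 and 56.9 of the genes above 0 in WT and at 47.5, 50.4 and 53.7 in KO. These ranks did not overlap either, and nor did those of *Egf* and *Hbegf*, which were higher in KO. The share of all genes whose ranks did not overlap was not computed. The gene is on chromosome 11 (16752203 to 16918158, plus strand, GRCm38).

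Some marker sums of other cells were also lower in KO. The summed FPKM of 8 astrocyte markers was 745, 633 and 701 in WT and 479, 535 and 531 in KO. All 8 had a lower KO mean on the log2 scale, and *Gja1* and *Gfap* had an unadjusted limma p under 0.05 (0.0338 and 0.0464, each with an adjusted limma p of 0.841; exact permutation p = 0.1 for each). The sum of 5 oligodendrocyte precursor markers was 68.1, 67.1 and 71.2 in WT and 50.7, 55.5 and 52.8 in KO, and all 5 were lower, of which 0 reached an unadjusted limma p under 0.05. The sum of 8 pericyte markers was 1325, 1135 and 820 in WT and 984, 889 and 860 in KO, with overlap. Its most abundant gene made up 70.3% of it. Of the 8 pericyte markers 7 were lower and 1 higher on the log2 scale, and 2 of the lower ones had an unadjusted limma p under 0.05. Expressed per 1000 FPKM of the astrocyte markers in the same library, *Egfr* was at 13.9, 18.1 and 13.0 in WT and at 14.0, 13.7 and 14.6 in KO, and these values overlapped. Per 1000 FPKM of the precursor markers it was at 152, 170 and 128 in WT and at 132, 132 and 147 in KO, which also overlapped. *Pdgfra*, which is also a fibroblast marker, made up 35.3% of the precursor sum, and without it the precursor sum was 37.0, 45.1 and 52.4 in WT and 34.2, 39.4 and 28.3 in KO, with overlap. Relative to the 11 marker sums examined, *Egfr* overlapped between genotypes for 9, among them pericytes, neurons, microglia and fibroblasts, and did not for endothelium and choroid plexus. Per 1000 FPKM of 10 endothelial markers it was at 8.92, 9.39 and 9.93 in WT and at 6.14, 8.71 and 7.66 in KO, with no overlap. *Cldn5* made up 52.7% of the endothelial sum, and relative to the sum without it *Egfr* was at 17.3, 22.2 and 20.04 in WT and at 13.6, 17.4 and 16.4 in KO, which overlapped. *Cdh5*, the cadherin of endothelial junctions, was at 86.7, 92.4 and 91.3 FPKM in WT and at 50.8, 42.5 and 38.1 FPKM in KO (log2 fold change −1.03, SE 0.19; limma adjusted p = 0.841). *Egfr* per *Cdh5* was 0.120, 0.124 and 0.0997 in WT and 0.132, 0.172 and 0.204 in KO, higher in KO without overlap. *Cdh5* was the only endothelial marker of the 10 with a lower log2 fold change than *Egfr*, and the other 9 ran from −0.33 (*Kdr*) to 0.37 (*Emcn*), with 4 of the 10 above 0 and 6 below. The part of RNA from any of these cells in the lower *Egfr* was not tested. In RNA from whole microvessel preparations, fewer cells of a type and less RNA per cell cannot be told apart.

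Among 11 marker lists with 76 entries, no listed marker was at 0 in every library, so the preparations carried RNA of endothelium, mural cells, glia, neurons and choroid plexus. The endothelial sum was 1162, 1217 and 916 in WT and 1088, 841 and 1013 in KO, and overlapped. For 4 lists the sums did not overlap and were lower in KO, those of astrocytes, oligodendrocyte precursors, microglia and fibroblasts, and *Pdgfra* counts in both the precursor and the fibroblast sum. The choroid plexus sum was 3400, 2999 and 2946 in WT and 8913, 3010 and 10755 in KO, so that KO 1 and KO 3 stood far above the other 4 libraries. *Ttr*, the thyroxine carrier of the choroid plexus, made up 91.4% of that sum.

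**Figure D2:**
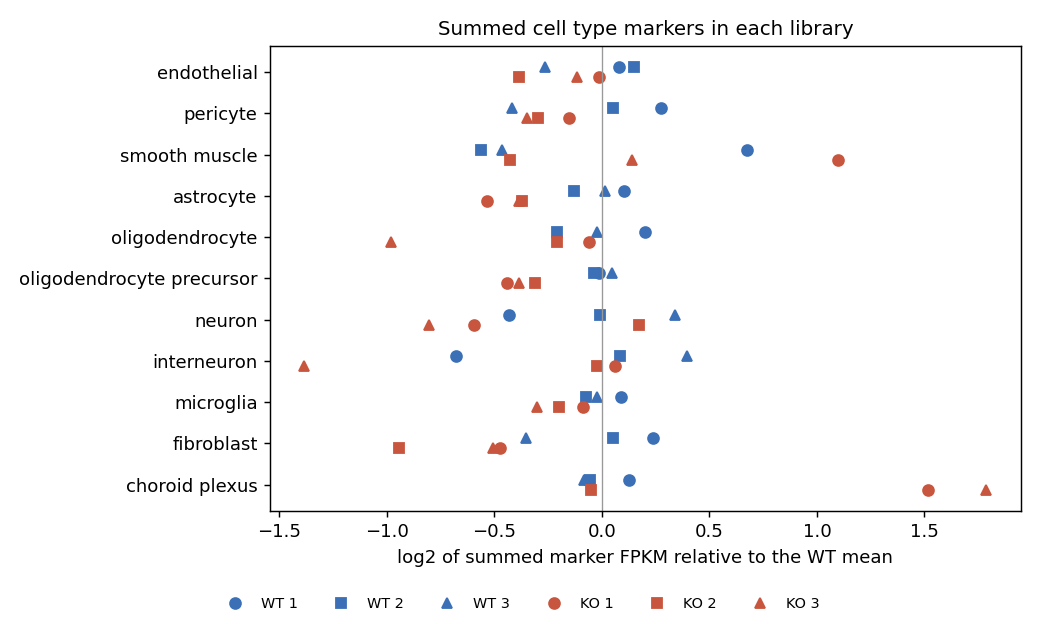
Summed FPKM of the marker genes of each cell type in the 6 libraries, relative to the mean of the WT libraries and on a log2 axis. Points are libraries. The astrocyte and oligodendrocyte precursor sums of the 3 KO libraries lie below those of the 3 WT libraries, and the choroid plexus sums of KO 1 and KO 3 lie far above the rest.

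*Erbb2*, the partner receptor without a known ligand of its own, was at 5.58, 5.50 and 3.80 FPKM in WT and at 4.99, 2.98 and 3.71 FPKM in KO. The groups overlapped, since KO 1 lay above WT 3. The means were 4.96 ± 1.00 and 3.89 ± 1.01 (SD, n = 3 each), and the log2 fold change of −0.29 (SE 0.27) had an unadjusted limma p of 0.317 and an adjusted p of 0.913. It ran from −0.44 without KO 1 to −0.15 without KO 2, and was −0.15 with GC content corrected.

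*Erbb4*, a neuregulin receptor, was the most variable receptor among those tested. It was at 0.0991, 1.23 and 2.52 FPKM in WT and at 2.24, 3.67 and 1.21 FPKM in KO. The estimated fragments behind these values were 14, 130 and 346 in WT and 213, 282 and 170 in KO, so the low value of WT 1 rested on few fragments. The means were 1.28 ± 1.21 in WT and 2.37 ± 1.23 in KO (SD, n = 3 each), and the ranges overlapped. The log2 fold change of 0.65 (SE 0.48) had an unadjusted limma p of 0.208 and an adjusted p of 0.877. It ran from 0.20 without WT 1 to 1.04 without WT 3, and was 1.35 with a pseudocount of 0.1. The interneuron marker sum was also lowest among the WT libraries in WT 1 (71.8, 122 and 151 in WT, and 120, 113 and 44.1 in KO), and the neuron marker sum was 289, 388 and 494 in WT and 259, 440 and 224 in KO. Relative to the 11 marker sums, *Erbb4* did not overlap between genotypes for neurons and interneurons and overlapped for the other 9. Per 1000 FPKM of interneuron markers, it was at 1.38, 10.1 and 16.7 in WT and at 18.7, 32.4 and 27.4 in KO. *Sst* made up 58.7% of the interneuron sum, and 5 of the 7 interneuron markers were higher in KO on the log2 scale. Relative to the sum without *Sst*, *Erbb4* was at 3.76, 28.5 and 50.7 in WT and at 36.8, 72.1 and 47.6 in KO, which overlapped. The part of neuronal RNA in the spread of *Erbb4* was not tested.

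*Erbb3*, the neuregulin receptor with weak kinase activity, was under the filter. It was at 0.231, 1.14 and 0.649 FPKM in WT and at 0.663, 0.899 and 0.326 FPKM in KO. The KO range lay inside the WT range, with means of 0.674 ± 0.456 and 0.629 ± 0.288 (SD, n = 3 each; exact two-sided permutation p = 1.0). These levels rested on an estimated 16 to 60 fragments per library. The oligodendrocyte marker sum, at 579, 435 and 495 in WT and 483, 436 and 255 in KO, was highest in WT 1, the library with the lowest *Erbb3*, and of the 8 oligodendrocyte markers tested 6 were lower and 2 higher in KO on the log2 scale. The 3 with an unadjusted limma p under 0.05, *Mag*, *Mobp* and *Cnp*, were lower, each with an adjusted limma p of 0.841. The precursor sum without *Pdgfra* was lowest among the WT libraries in WT 1 (37.0, 45.1 and 52.4 in WT, and 34.2, 39.4 and 28.3 in KO). With *Pdgfra* it was lowest among them in WT 2. Relative to each of the 11 marker sums, *Erbb3* overlapped between genotypes. The part of oligodendrocyte lineage RNA in the *Erbb3* level was not tested.

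*Egfr* had the largest share of receptor RNA per length in every library. As a percent of the summed FPKM of the 4 receptors in the same library, *Egfr* was at 63.7, 59.2 and 56.6 in WT and at 45.8, 49.2 and 59.7 in KO. KO 3 lay inside the WT range, and the difference of the means (59.9 ± 3.57 and 51.6 ± 7.20, SD, n = 3 each) was −8.28 percentage points with an exact two-sided permutation p of 0.3. As a share of receptors and ligands together the *Egfr* difference was −10.1 points (exact permutation p = 0.1). The *Erbb4* share was 0.609%, 6.37% and 15.7% in WT and 15.4%, 24.7% and 9.29% in KO, a difference of 8.89 percentage points (exact permutation p = 0.3). It ran from 4.78 points without KO 2 to 13.0 without WT 3, and was 3.09 points as a share of receptors and ligands together. The *Erbb2* share ranged from 20.1% to 34.3% and the *Erbb3* share from 1.42% to 6.04% over the 6 libraries, with exact permutation p of 0.9 and 0.7. These p-values are unadjusted over 4 shares, which sum to 100% and are not independent. With 3 mice against 3 no share could give a p below 0.1, so this test could not reach 0.05.

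**Figure D3:**
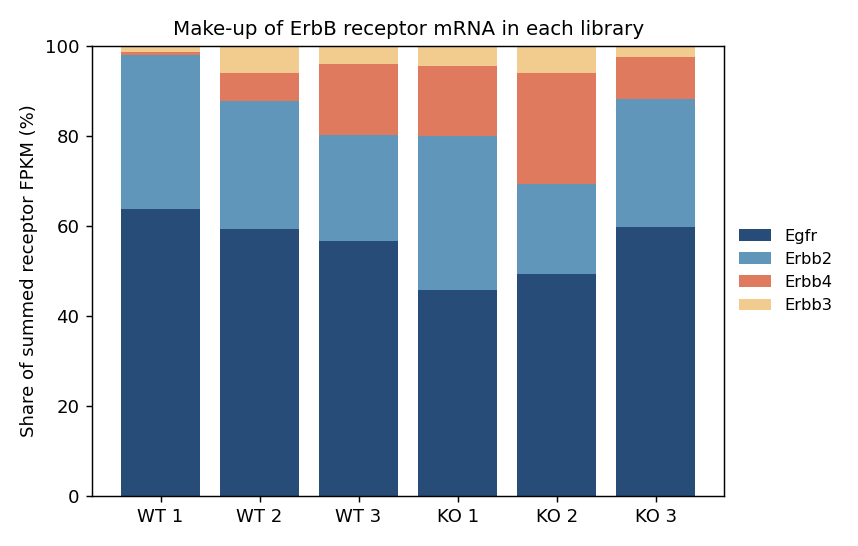
Share of each receptor in the summed FPKM of the 4 ErbB receptors, in percent, for each of the 6 libraries. Stacked bars are libraries and colors are receptors. *Egfr* is the largest share in every library, from 45.8% in KO 1 to 63.7% in WT 1, and the *Erbb4* share runs from 0.609% in WT 1 to 24.7% in KO 2.

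Among the ligands, *Egf*, which encodes epidermal growth factor, was the one whose groups did not overlap. It was at 0.229, 0.273 and 0.667 FPKM in WT and at 1.94, 0.848 and 0.905 FPKM in KO. All 3 KO values lay above the highest WT value, while KO 1 stood apart from the other two. The means were 0.390 ± 0.241 in WT and 1.23 ± 0.617 in KO (SD, n = 3 each), a ratio of 3.16, with an exact two-sided permutation p of 0.1. The estimated fragments were 12, 11 and 36 in WT and 73, 26 and 50 in KO. With a mean over the 6 libraries of 0.811 FPKM *Egf* was under the filter, and its difference on the log2(FPKM + 1) scale was 0.66. When no filter was applied it had an unadjusted limma p of 0.0313 and an adjusted p of 0.866, in a fit where 5.49% of 18806 genes had an unadjusted p under 0.05. When a library was left out, the difference ran from 0.45 without KO 1 to 0.80 without WT 3. With a pseudocount of 0.1 it was 1.46.

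The choroid plexus marker sum was high in KO 1 and KO 3 but not in KO 2, and *Egf* was higher than in WT in all of them. Per 1000 FPKM of the choroid plexus markers, *Egf* was at 0.0674, 0.0912 and 0.226 in WT and at 0.218, 0.282 and 0.0842 in KO, which overlapped. Relative to 9 of the 11 marker sums *Egf* did not overlap between genotypes, and the exceptions were choroid plexus and smooth muscle. The 9 include the 4 sums that were lower in KO without overlap. Against those, the separation of *Egf* was already fixed by its own values. The smooth muscle sum was 578, 245 and 262 in WT and 775, 269 and 399 in KO. The part of either cell type in the *Egf* level was not tested.

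*Tgfa*, which encodes TGF-alpha, had the highest mean of the ligands over the 6 libraries, though *Hbegf* exceeded it in KO 1 and KO 2. It was at 8.32, 6.88 and 8.40 FPKM in WT and at 4.83, 7.39 and 9.57 FPKM in KO. The KO range enclosed the WT range, with means of 7.87 ± 0.853 and 7.26 ± 2.37 (SD, n = 3 each). The log2 fold change was −0.14 (SE 0.26; limma adjusted p = 0.960; exact permutation p = 0.8), and it was 0.091 without KO 1, so no direction held.

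*Hbegf*, which encodes HB-EGF, a ligand of EGFR and ERBB4, was at 6.41, 5.59 and 2.69 FPKM in WT and at 6.70, 8.28 and 5.99 FPKM in KO. The groups overlapped because WT 1 lay above KO 3. By rank within a library *Hbegf* stood at percentiles 45.9, 42.7 and 28.6 in WT and at 47.7, 53.7 and 47.2 in KO, without overlap. Relative to the 11 marker sums *Hbegf* did not overlap for 7 and overlapped for smooth muscle, neurons, interneurons and choroid plexus. Those 7 include the 4 sums that were themselves lower in KO without overlap, and dividing by them raises any gene in KO. The share of all genes separated in this way was not computed. Per 1000 FPKM of the endothelial markers, *Hbegf* was at 5.51, 4.59 and 2.94 in WT and at 6.16, 9.84 and 5.91 in KO. The means were 4.90 ± 1.95 and 6.99 ± 1.17 (SD, n = 3 each), and the log2 fold change of 0.49 (SE 0.30) had an unadjusted limma p of 0.137 and an adjusted p of 0.848. Without WT 3, the lowest library, it was 0.18.

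The remaining ligands averaged under 1 FPKM, and 5 libraries of *Areg* and 3 of *Btc* lay under the floor of 3 fragments. *Areg*, which encodes amphiregulin, was at 0 in all WT libraries and at 0.117, 0 and 0.393 FPKM in KO, and the estimated fragments were at most 6, so no fold is given and its difference on the log2(FPKM + 1) scale is a description only. *Btc*, which encodes betacellulin, was at 0.331, 0 and 0.0299 FPKM in WT and at 0.863, 0.641 and 0.0583 FPKM in KO (exact two-sided permutation p = 0.2). KO 3 lay below WT 1. *Nrg1*, which encodes neuregulin 1, a ligand of ERBB3 and ERBB4, was at 0.635, 0.109 and 0.295 FPKM in WT and at 0.365, 2.10 and 0.493 FPKM in KO (exact two-sided permutation p = 0.4). Only KO 2 lay above the WT range. Its difference on the log2(FPKM + 1) scale was 0.10 without KO 2.

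**Figure D4:**
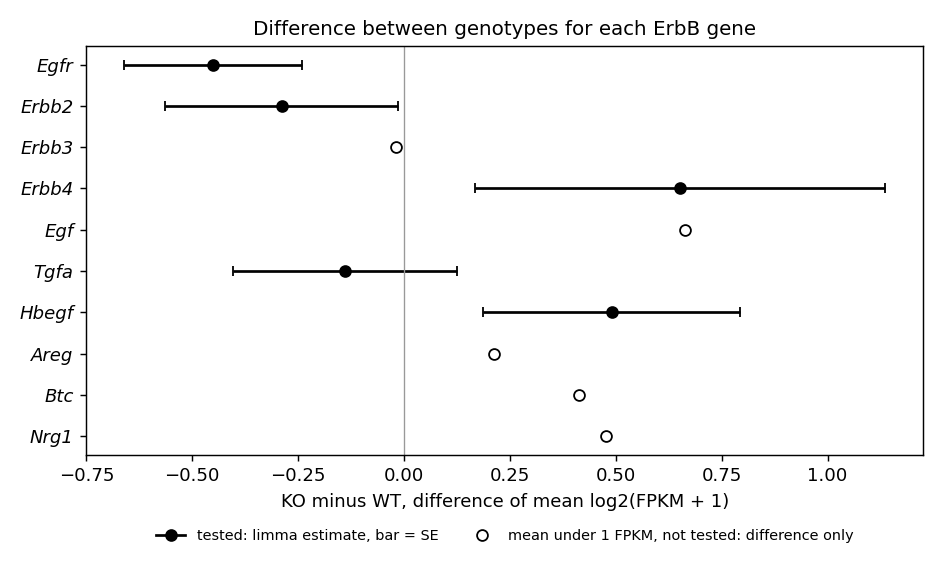
Difference between KO and WT in mean log2(FPKM + 1) for the 10 ErbB genes, on the log2 scale. Filled points with bars are the limma estimates ± SE of the 5 tested genes, and open points are the 5 genes under 1 FPKM, which were not tested. *Egfr* lies at −0.45 and *Erbb4* at 0.65, with the widest bar.

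Over the 6 libraries the mean levels ran from *Egfr* (8.78 FPKM) through *Tgfa* (7.56), *Hbegf* (5.94), *Erbb2* (4.43), *Erbb4* (1.83), *Egf* (0.811), *Nrg1* (0.667), *Erbb3* (0.652) and *Btc* (0.320) to *Areg* (0.0850 FPKM). Every pair of neighbors in this order had overlapping ranges. Each higher neighbor exceeded the next in 3 to 5 of the 6 libraries, and none in all 6. *Tgfa* and *Hbegf* were each higher than *Egf* on this scale in all 6 libraries. In the GENCODE M21 annotation of GRCm38, *Erbb2* is on chromosome 11 (98412470 to 98437716, plus strand), *Erbb3* on chromosome 10 (128567523 to 128589652, minus strand), *Erbb4* on chromosome 1 (68032186 to 69108059, minus strand), *Egf* on chromosome 3 (129677565 to 129755316, minus strand) and *Tgfa* on chromosome 6 (86195223 to 86275719, plus strand). *Areg* (91139599 to 91148432) and *Btc* (91357261 to 91402994) are both on chromosome 5, and *Nrg1* is on chromosome 8 (31814551 to 32884029). Each value covers all transcripts of a gene symbol, so isoforms such as those of *Nrg1* were not separated.

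The summed receptors and 5 ratios within a library were set beside these levels. They were chosen after the members' values were seen and carry no test, and those with *Egfr* in them are not independent of its lower values in KO. The 4 receptors summed to 16.3, 19.3 and 16.1 FPKM in WT and to 14.6, 14.9 and 13.0 FPKM in KO, without overlap. *Hbegf* per *Egfr* was 0.618, 0.489 and 0.296 in WT and 1.00, 1.13 and 0.772 in KO, without overlap. *Tgfa* per *Egfr* was 0.802, 0.602 and 0.922 in WT and 0.723, 1.01 and 1.23 in KO, and these overlapped. *Egf* per *Egfr* was 0.0221, 0.0239 and 0.0732 in WT and 0.291, 0.116 and 0.117 in KO, a separation that the values of both genes already fix. The 5 EGF-type ligands without *Nrg1* summed to 15.3, 12.7 and 11.8 FPKM in WT and to 14.5, 17.2 and 16.9 FPKM in KO, and overlapped. The groups overlapped for the summed 6 ligands (15.9, 12.9 and 12.1 FPKM in WT, and 14.8, 19.3 and 17.4 FPKM in KO), for *Egfr* per *Erbb2* (1.86, 2.08 and 2.40 in WT, and 1.34, 2.46 and 2.09 in KO) and for *Tgfa* per *Hbegf* (1.30, 1.23 and 3.12 in WT, and 0.721, 0.892 and 1.60 in KO).

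**Figure D5:**
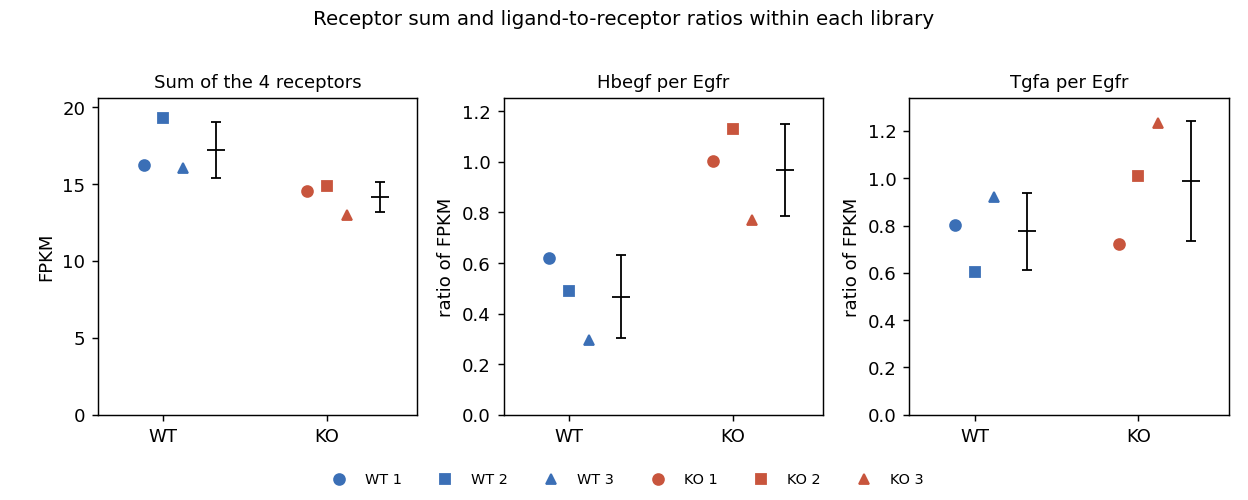
Summed FPKM of the 4 receptors, and the ratios of *Hbegf* and *Tgfa* to *Egfr*, in each of the 6 libraries, on axes from 0. Points are libraries and bars are the mean ± SD of 3 mice. WT and KO points do not overlap for the receptor sum and for *Hbegf* per *Egfr*, and overlap for *Tgfa* per *Egfr*.

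Of the 5 other ErbB ligands, *Nrg2* and *Nrg3* were tested and did not pass, and *Nrg4*, *Ereg* and *Epgn* were under the filter. *Nrg3*, a neuregulin that binds ERBB4, was the most abundant, at 3.08, 7.72 and 6.36 FPKM in WT and 5.14, 9.49 and 5.11 FPKM in KO (log2 fold change 0.20, SE 0.34; limma adjusted p = 0.957). *Nrg2* was at 0.857, 2.09 and 4.78 FPKM in WT and 1.01, 4.84 and 0.652 FPKM in KO, and *Nrg4* at 1.12, 0.542 and 0.139 FPKM in WT and 1.21, 1.40 and 0.678 FPKM in KO (exact two-sided permutation p = 0.2). Their groups overlapped. *Ereg*, which encodes epiregulin, was above 0 only in WT 1 (0.102 FPKM) and *Epgn*, which encodes epigen, only in WT 2 (0.622 FPKM). The 4 neuregulins summed to 5.69, 10.5 and 11.6 FPKM in WT and 7.72, 17.8 and 6.93 FPKM in KO, so that neuregulin RNA came mostly from *Nrg2* and *Nrg3* rather than from *Nrg1*.

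The 8 lists of other ErbB ligands, sheddases, signaling genes, feedback inhibitors and growth factor induced genes gave few differences past an unadjusted threshold. Of their 94 genes 88 were tested, and 4 were lower and 0 higher in KO at an unadjusted limma p under 0.05 (4.55%, beside 5.88% of all genes tested). None passed after adjustment. The log2 fold change was below 0 for 54 and above 0 for 34, with a median of −0.13, beside 7240 below and 7007 above 0 among all genes tested. The groups did not overlap for 6 of the 88 (6.82%, beside 11.1% of all genes tested), 5 of them lower in KO. The ligand sheddases were 3 higher and 5 lower (median −0.14), and *Adam10*, a protease that releases EGF and betacellulin, was at 32.4 ± 2.54 FPKM in WT and 32.8 ± 3.97 FPKM in KO (SD, n = 3 each). The adaptors were 7 higher and 9 lower (median −0.06), with the adaptor gene *Grb2* at 45.7 ± 5.40 and 38.2 ± 7.23 FPKM. The Ras and MAP kinase genes were 6 higher and 4 lower (median 0.05), with *Mapk3* (ERK1) at 99.7 ± 13.8 and 85.1 ± 19.8 FPKM. The PI3 kinase and Akt genes were 3 higher and 9 lower (median −0.12), with *Akt1* at 108 ± 5.07 and 102 ± 25.1 FPKM.

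The PLC-gamma, STAT and Src genes were 1 higher and 10 lower, with the lowest median of the 8 lists (−0.40). *Stat5b*, a transcription factor activated by receptor kinases, was at 9.36, 8.99 and 7.52 FPKM in WT and at 4.82, 5.39 and 6.59 FPKM in KO. Its groups did not overlap (log2 fold change −0.55, SE 0.23; unadjusted limma p = 0.0367, adjusted p = 0.841, exact permutation p = 0.1). The feedback inhibitors were 9 higher and 8 lower (median 0.07). *Socs3*, a suppressor of cytokine and receptor signaling, was at 7.30, 6.01 and 5.46 FPKM in WT and at 5.90, 2.66 and 2.26 FPKM in KO, with KO 1 inside the WT range (log2 fold change −0.73, SE 0.32; unadjusted limma p = 0.0460, adjusted p = 0.841, exact permutation p = 0.2).

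The growth factor induced genes were 4 higher and 8 lower (median −0.13). *Egr1*, an immediate early transcription factor, was at 12.7, 22.0 and 26.1 FPKM in WT and at 12.9, 13.2 and 9.47 FPKM in KO, so that WT 1 lay among the KO libraries (log2 fold change −0.68, SE 0.28; unadjusted limma p = 0.0338, adjusted p = 0.841, exact permutation p = 0.3). *Egr3*, of the same family, was at 2.99, 3.92 and 4.78 FPKM in WT and at 0.800, 2.54 and 2.16 FPKM in KO, without overlap (log2 fold change −0.83, SE 0.35; unadjusted limma p = 0.0371, adjusted p = 0.841, exact permutation p = 0.1). Immediate early genes are also induced in neurons, and the cells that carried this RNA were not determined.

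The genes most like each receptor were sought by the root mean square difference of centered log2(FPKM + 1) over the 6 libraries among all genes tested, where 0 is an identical pattern. For *Egfr*, whose own root mean square deviation was 0.247, these were *Ctif* (0.0527), *Fam53c* (0.0598) and *Thsd1* (0.0604), and 48 genes lay under 0.1. For *Erbb2* (0.269) they were *Rps4l* (0.0225), *Cyb561a3* (0.0376) and *Mrps24* (0.0418), with 22 genes under 0.1. *Rps4l* can share reads with its near-identical ribosomal copy and is uncertain. For *Erbb4* (0.665) they were *Gm6607* (0.160), *Med27* (0.184) and *AA474331* (0.189), and 0 genes lay under 0.1. With 6 libraries such likeness is a description only.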

How the data were processed

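Microvessel RNA of 6 mice was prepared with a strand-specific library kit and sequenced as paired ends. Per the labels and the study's methods, the authors trimmed the reads, mapped them with TopHat to mm10 and deposited FPKM values per gene symbol. The program that made the FPKM values and the use of strand in counting are not given in the sources used here. FPKM values are not counts, so a count model was not used, and log2(FPKM + 1) was fitted with limma 3.58.1 (trended variance) in R 4.3.3. The fit took in 14247 genes, those averaging 1 FPKM or more over the 6 libraries, and Benjamini-Hochberg adjustment ran over them. The smaller tests were exact two-sided permutation tests over 20 assignments in scipy 1.17.1 (Python 3.11.15).

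The members, the 8 pathway lists and the 11 marker lists were chosen with earlier results of these data known. The genes named by rule were the members, the other ligands, *Gadd45gip1*, up to 4 genes per pathway list at an unadjusted p under 0.05 (or its most abundant gene) and the 3 genes most like each receptor with a mean of at least 1 FPKM. Marker genes (*Gja1*, *Gfap*, *Mag*, *Mobp*, *Cnp*, *Ttr*, *Pdgfra*, *Cldn5*, *Cdh5*, *Kdr*, *Emcn* and *Sst*) were named outside this rule, after their values were seen. Values relative to markers, and the precursor, endothelial and interneuron sums without *Pdgfra*, *Cldn5* and *Sst*, were added after the data were seen. Positions and transcript GC contents are from GENCODE M21 (GRCm38), and depth was estimated with transcript lengths. Promoters were listed for 7 of the 10 members. The scripts were tested on simulated data. The alternatives were no filter, a mean of at least 5 FPKM, a pseudocount of 0.1, median and quantile scaling, a replicate block, no trended variance, a GC correction (loess span 0.3) and leaving out each library.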

Additional observations from a re-analysis of the deposited data

How the results depend on the processing

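No member was called in the reported fit and in 12 of 14 alternatives. With no filter 1 member had an unadjusted limma p under 0.05 (*Egf*, 0.66), as did 1033 of 18806 genes (5.49%), and with GC content corrected in each library 1 did (*Egfr*, −0.55), as did 639 of 13726 genes (4.66%). When a library was left out, the *Egfr* difference ran from −0.53 without WT 3 to −0.38 without WT 2. Over all 14 alternatives it ran from −0.55 to −0.38, with unadjusted limma p from 0.0248 to 0.176. *Tgfa* ran from −0.34 without KO 3 to 0.091 without KO 1, a reversal. With a pseudocount of 0.1 the difference was 1.46 for *Egf*, 1.14 for *Areg*, 1.44 for *Btc*, 1.11 for *Nrg1* and 1.35 for *Erbb4*. The difference in *Egfr* share ran from −12.3 to −5.41 percentage points when a library was left out. The genes with an unadjusted p under 0.05 numbered 838, and between 450 (without WT 2) and 1871 (without KO 2) when a library was left out, with 510 without KO 1. In the replicate block fit they numbered 871, the *Egfr* difference was −0.45 and its unadjusted limma p 0.0998, and no member was called. The titles number the mice 1 to 3 in each genotype, while the columns of the deposited values carry 4, 6 and 8 for WT and 1, 2 and 6 for KO, and the block used the titles. The deviations of mice with the same title number correlated at 0.00159 to 0.0375, and nothing in the labels pairs them, so they share only a number. 1 of the 3 WT mice correlated best with the KO mouse of its own number. Depth limits *Areg* and *Btc*, with 5 and 3 libraries under the floor of 3 fragments.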
